A study of Mus musculus with 2 samples.

Results

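The Lefty/Nodal-high cells were the 470 cells, of 9400 kept cells of the 48h-EpiLC library, that carried the most Lefty1, Lefty2 and Nodal message. They were chosen by a score, the UMIs (unique molecular identifiers, each standing for 1 captured mRNA molecule) of these 3 genes summed and divided by the cell's total UMIs, times 10000, and the highest 5% of cells were taken. The comparison cells were the 660 kept cells without a single UMI of the 3 genes, called score-0 cells. Cells had passed a filter of 1000 or more genes seen and no more than 10% of UMIs from mitochondrial genes, and the series as a whole held 20454 kept cells.

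The study profiled single mouse cells by droplet 3′ RNA-seq at 2 stages, embryonic stem cells (ESCs, 0 h) and epiblast-like cells after 48 h of induction (48h-EpiLCs), with 1 library each. Each library mixed wild-type cells carrying the ROSAmT/mG reporter, which makes the red protein tdTomato, with as many Cnot8 KO cells. Both libraries are labelled strain ICR, and their genotype label reads wild type alone. Cnot8 is one of the enzymes of the Ccr4-Not complex that remove poly(A) tails from mRNA. ESCs were kept in serum and LIF on feeder cells, and EpiLCs were induced on Matrigel in N2B27 with activin A (20 ng/ml), basic FGF (12 ng/ml) and KSR (1%), so every 48h-EpiLC, high or not, received activin A, a ligand of the receptors that Nodal uses. With a single library per stage nothing could be tested over replicates, and every interval is a 95% interval for counting error only.

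Nodal is a secreted ligand of the TGF-beta family that keeps the epiblast of the early embryo pluripotent and later specifies mesendoderm. It binds activin receptors together with the co-receptor Tdgf1 (Cripto), and the signal reaches the nucleus as phosphorylated Smad2 or Smad3 with Smad4, which act with partners such as Foxh1. Lefty1 and Lefty2 are secreted antagonists that block Nodal and its co-receptor. Nodal signalling induces Nodal itself as well as both Lefty genes, so message of all 3 is commonly read as a sign of pathway activity.

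The 250 bases before the RefSeq start of 2 genes are shown (GRCm38.p6, the build of the mm10 reference used for counting). Nodal is a gene of the score, and Notch3, described further on, was among the 3 higher genes of largest ratio. Capitals mark the letters CAGAC, the short box that SMAD proteins bind, or its reverse complement GTCTG. The Nodal window (chr10:61417722-61417971, plus strand) held neither, and the Notch3 window (chr17:32166891-32167140, minus strand) held 1 on each strand, beginning 152 and 133 bases before the start. The window of Gbx2, the lower gene of largest ratio, held neither and is not printed.
Nodal: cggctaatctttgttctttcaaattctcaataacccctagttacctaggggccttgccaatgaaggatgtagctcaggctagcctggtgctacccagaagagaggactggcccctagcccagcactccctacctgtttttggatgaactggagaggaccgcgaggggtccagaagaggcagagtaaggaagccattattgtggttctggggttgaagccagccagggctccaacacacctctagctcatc
Notch3: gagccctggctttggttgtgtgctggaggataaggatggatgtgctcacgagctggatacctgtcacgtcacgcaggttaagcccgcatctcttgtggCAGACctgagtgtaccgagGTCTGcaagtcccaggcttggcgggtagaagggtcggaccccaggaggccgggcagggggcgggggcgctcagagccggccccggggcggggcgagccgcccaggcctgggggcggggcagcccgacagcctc
No window was available for Lefty1 and Lefty2. CAGAC in either direction stood in 42.1% of the 27025 windows of this length, in 14 of 35 windows of the genes higher in Lefty/Nodal-high cells of both line classes, which are defined further on, or 40.0%, and in 6 of 19 windows of the lower genes, or 31.6%. The FOXH1 letters TGTGGATT, in either direction, were in 0.751% of all windows and in none of these genes' windows, and TGTGTATT in 0.921% of all, in 0 of the 35 and in 1 of the 19. These shares describe letters in a short window, not binding.

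The score ran without a gap from 0 to 93.5 UMIs per 10000, with a median of 3.39 over all kept cells. The members ranged from 18.2 to 93.5 with a median of 23.7. The lowest member scored 18.245 and the highest cell left out 18.235, so the 5% line cut a continuous tail and not a separate group. In raw UMIs of the 3 genes the members held 4 to 139, with a median of 36.0, against a median of 5.00 in all kept cells.

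**Figure D1:**
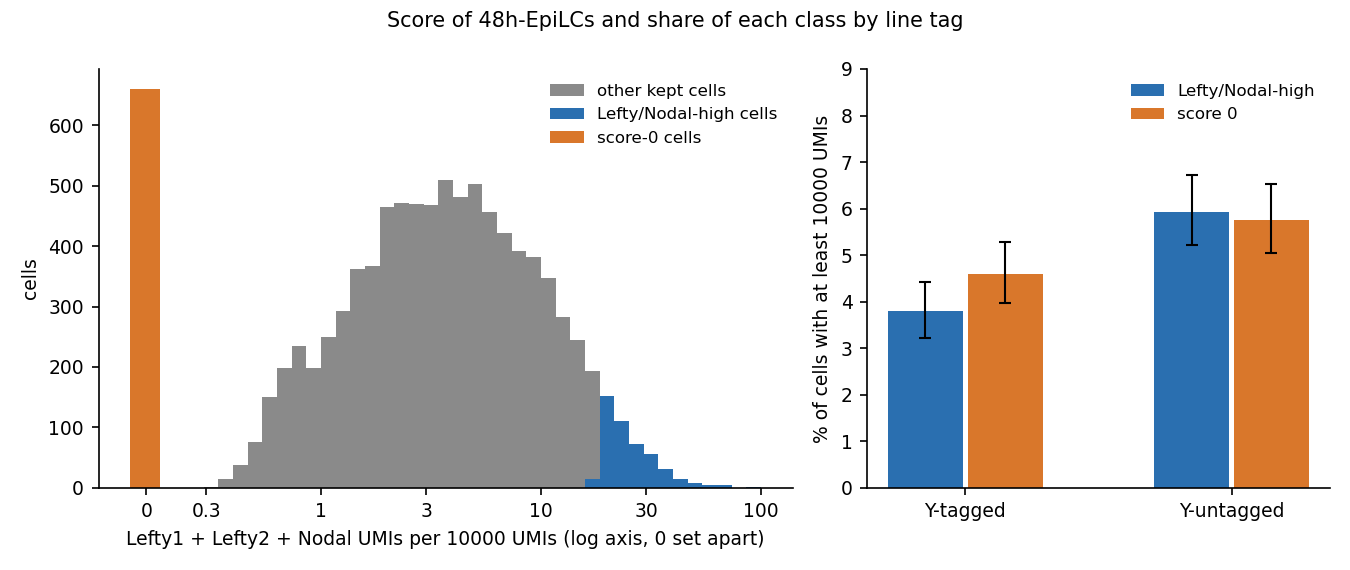
Left, number of kept 48h-EpiLCs by score (UMIs of Lefty1, Lefty2 and Nodal per 10000 UMIs, log axis with 0 set apart), with the 470 Lefty/Nodal-high cells and the 660 score-0 cells coloured. Right, percent of Y-tagged and Y-untagged cells of at least 10000 UMIs that were Lefty/Nodal-high or score-0, with exact binomial 95% intervals. The Lefty/Nodal-high share was 3.79% in Y-tagged and 5.93% in Y-untagged cells, at unequal median depths of 17161 and 15050 UMIs.

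Lefty1 dominated the score, with 90.5% of the members' score UMIs, while Lefty2 gave 6.08% and Nodal 3.44%. All 470 members had a Lefty1 UMI, 353 (75.1%) had a Lefty2 UMI and 317 (67.4%) a Nodal UMI. All 3 genes were detected together in 234 members, Lefty1 and Lefty2 without Nodal in 119, Lefty1 and Nodal without Lefty2 in 83, and Lefty1 alone in 34. As the rule fixed, levels were high in the members: Lefty1 stood at 2369 CPM (UMIs per 1000000 UMIs of the class) against 430.4 in all kept cells, Lefty2 at 159 against 64.5, and Nodal at 90.1 against 56.9. Choosing cells by counts also picks counting luck, so each cell's UMIs were divided at random into 2 parts, one used to choose and the other to measure. In the part not used for choosing, the chosen cells stood at 2171 CPM for Lefty1, 137 for Lefty2 and 75.9 for Nodal, against 433, 65.0 and 56.6 in all cells. Of the 470 cells highest in one part, 286 (60.9%) were also among the highest in the other.

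In depth and detected genes the members lay between the score-0 cells and the whole library. Their median depth was 14495 UMIs, against 11731 in score-0 cells and 15284 over all kept cells, their median number of detected genes 3920 against 3522 and 4057, and their median mitochondrial share 3.22% against 3.11% and 3.13%. A cell of few UMIs reaches a score of 0 more readily, and 228 of the 660 score-0 cells had under 10000 UMIs against 71 of the 470 members. Of the 10% of kept cells with the highest doublet scores, 20 were members (4.26% of members) and 15 score-0 cells (2.27%).

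The library labels name no single cell's line, so 2 tags in the RNA were used, tdTomato of the wild-type line and the Y-linked genes Ddx3y and Eif2s3y. tdTomato was thinly captured: 23 of 470 members had a tdTomato UMI (4.89%, interval 3.13 to 7.25), 34 of 660 score-0 cells did (5.15%, 3.59 to 7.12), and 4.81% of all kept cells did. A Ddx3y or Eif2s3y UMI was found in 39.4% of members (34.9 to 43.9), 37.7% of score-0 cells (34.0 to 41.5) and 47.6% of all kept cells (46.5 to 48.6). Both tags met in 4 members and 3 score-0 cells, and 56.6% of members and 57.6% of score-0 cells had neither. As summed levels, tdTomato stood at 3.43 CPM in members (2.20 to 5.11) and 4.65 in score-0 cells (3.26 to 6.44), and Ddx3y with Eif2s3y at 55.6 (50.2 to 61.4) and 56.0 (50.8 to 61.5), so neither tag differed between members and score-0 cells beyond its interval. A Y-linked UMI was rarer in cells with a tdTomato UMI (16.8% of 452) than in cells without one (49.1% of 8948), and the labels do not say which line carries a Y chromosome.

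Depth bears on a detection share, so the tags were also counted after each cell was thinned to 5000 UMIs, which left out 12 members and 88 score-0 cells. A Y-linked UMI was then seen in 18.1% of members (14.7 to 22.0), 23.3% of score-0 cells (19.8 to 26.9) and 22.8% of all kept cells (22.0 to 23.7), and a tdTomato UMI in 1.75%, 2.45% and 1.57%. At equal depth the share of score-0 cells was within the interval of the whole library, and that of members was lower, with intervals that met at 22.0%. Seen the other way, among cells of at least 10000 UMIs, 3.79% (3.23 to 4.42) of Y-tagged cells (a Ddx3y or Eif2s3y UMI and no tdTomato UMI) were members and 4.60% (3.98 to 5.28) were score-0 cells. Of Y-untagged cells (no UMI of Ddx3y, Eif2s3y, Kdm5d or Uty) 5.93% (5.21 to 6.72) were members and 5.75% (5.04 to 6.53) score-0. These shares were not at equal depth, with medians of 17161 UMIs in the Y-tagged and 15050 in the Y-untagged cells. A tdTomato UMI was also allowed in Y-untagged cells alone, of which 8.79% had one. Over all cells of a tag, Lefty1 stood at 395 CPM in Y-tagged and 478 in Y-untagged cells, and Nodal the other way round, at 61.1 and 51.3. Because the members may lean towards Y-untagged cells, each comparison that follows was also made inside both classes. These were Y-tagged cells of any depth (181 members and 246 score-0 cells) and Y-untagged cells of at least 10000 UMIs (230 and 223).

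Whether the 3 genes went together was asked with measures that did not choose the cells: each gene was left out in turn and cells were chosen by the other 2. Lefty1 stood at 804 CPM (782 to 827) in the 470 cells highest in Lefty2 and Nodal and at 267 (261 to 273) in the 2324 cells with neither, a log2 ratio of 1.59. Lefty2 stood at 127 (119 to 135) and 39.8 (36.2 to 43.6) when Lefty1 and Nodal chose, a log2 ratio of 1.65. Nodal differed least, at 75.9 (69.6 to 82.6) against 46.1 (42.6 to 49.8) when both Lefty genes chose, a log2 ratio of 0.71. The ratios were close in both line classes, 1.56 and 1.56 for Lefty1, 1.63 and 1.53 for Lefty2, 0.66 and 0.73 for Nodal. Thinning to 5000 UMIs before choosing brought the ratio of Lefty1 down to 1.04.

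**Figure D2:**
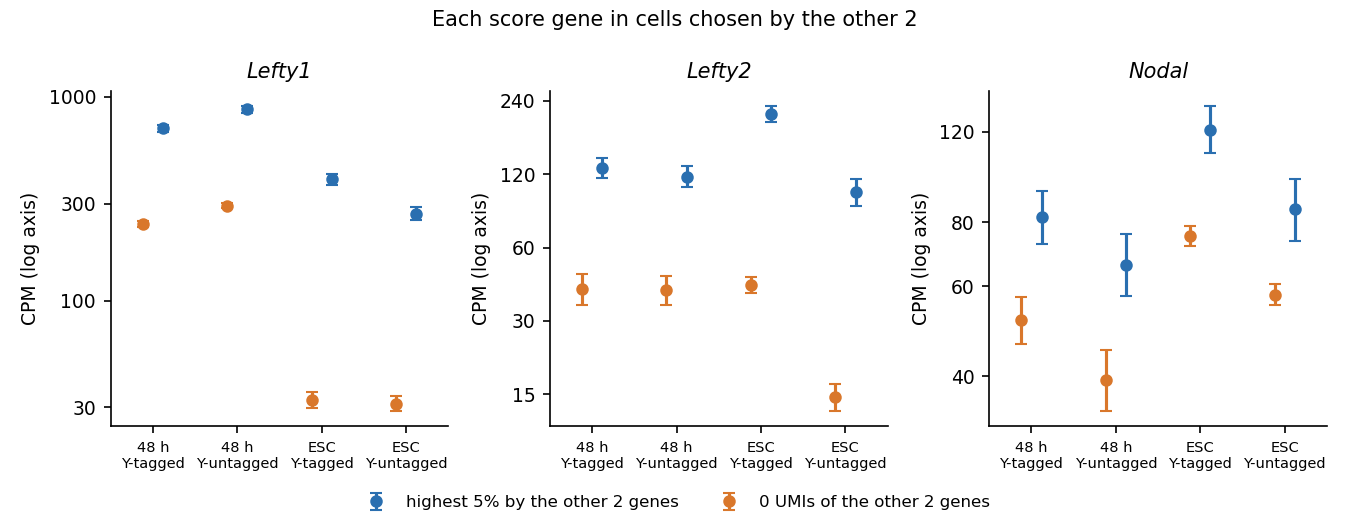
Level of each score gene (CPM, log axis) in the highest 5% of cells by the other 2 genes and in cells with 0 UMIs of those 2, by library and line class, with exact Poisson 95% intervals. In all 4 groups each gene was higher where the other 2 were high, and Nodal showed the smallest gap (48h-EpiLCs, log2 ratio 0.66 in Y-tagged and 0.73 in Y-untagged cells).

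Lefty1 and Lefty2 are neighbours on chromosome 1 (35.9 kb apart) and 86.7% identical over the 1607 aligned bases of their longest coding transcripts. In the last 500 bases, where 3′ reads fall, 31 of 471 words of 30 bases from Lefty1 occur in Lefty2 and 0 of those from Lefty2 occur in Lefty1. How reads that fit both were counted was not tested. Lefty2 lies at chr1:180893108-180899103 and Lefty1 at chr1:180935022-180938400, both on the plus strand (GRCm38, GENCODE).

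Against score-0 cells, the members differed in few genes. Of 5759 genes with at least 20 CPM in one class, the score genes aside, 69 were at least 1.5-fold higher in members (1.20%) and 54 at least 1.5-fold lower (0.938%), by the ratio of CPM + 1, and the median log2 ratio was -0.02. In both line classes alike, 45 genes were 1.5-fold higher (0.781%) and 30 were 1.5-fold lower (0.521%).

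The genes of largest ratio in both classes included signals and signal-responsive genes. Fgf8, a secreted growth factor of the gastrulating embryo, stood at 21.9 CPM (18.5 to 25.6) in members and 3.75 (2.51 to 5.38) in score-0 cells. Its log2 ratio was 2.62 in Y-tagged and 1.93 in Y-untagged cells. Pmepa1, which is induced by TGF-beta signalling and dampens it by binding receptor-activated SMADs, stood at 79.5 (73.0 to 86.4) against 30.2 (26.5 to 34.4). Its log2 ratio was 1.31 in Y-tagged and 1.77 in Y-untagged cells.

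Notch3, a Notch receptor, and Hes1, a repressor that Notch signalling induces, were both higher. Notch3 stood at 42.0 CPM (37.4 to 47.1) and 13.2 (10.7 to 16.0), a log2 ratio of 1.60, and Hes1 at 62.6 and 26.2, a ratio of 1.22. The other named genes were Pxdc1 (1.93), the antiproliferative gene Btg2 (1.34), the cell-surface protein Igdcc4 (1.31), the early germline and maternal factor Dppa3 (1.40) and the heparan sulphate proteoglycan Sdc4 (1.02, from 56.7 to 116 CPM).

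Among the lower genes, Gbx2, a homeobox gene of naive ESCs and the early neural plate, had the largest ratio, with 5.15 CPM (3.60 to 7.13) in members and 20.7 (17.6 to 24.1) in score-0 cells, a log2 ratio of -1.82. Dusp4, a phosphatase that ERK signalling induces and that inactivates ERK, stood at 31.0 (27.0 to 35.4) against 76.4 (70.3 to 82.8). Lef1, a transcription factor of Wnt signalling and an EpiLC gene, stood at 42.9 (38.2 to 48.0) against 83.2 (76.9 to 89.9). The others were Tet2 (-1.04), which oxidises methylated cytosine, F2rl1 (-1.01), a protease-activated receptor, Exoc3l (-0.93), Myrf (-0.83), Epha1 (-0.82), an ephrin receptor, Acp5 (-0.78) and Gadd45a (-0.77), a stress-induced gene. Genes of 20 to 30 CPM rest on few UMIs, 36 of Gbx2 and 153 of Fgf8 in all members together.

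**Figure D3:**
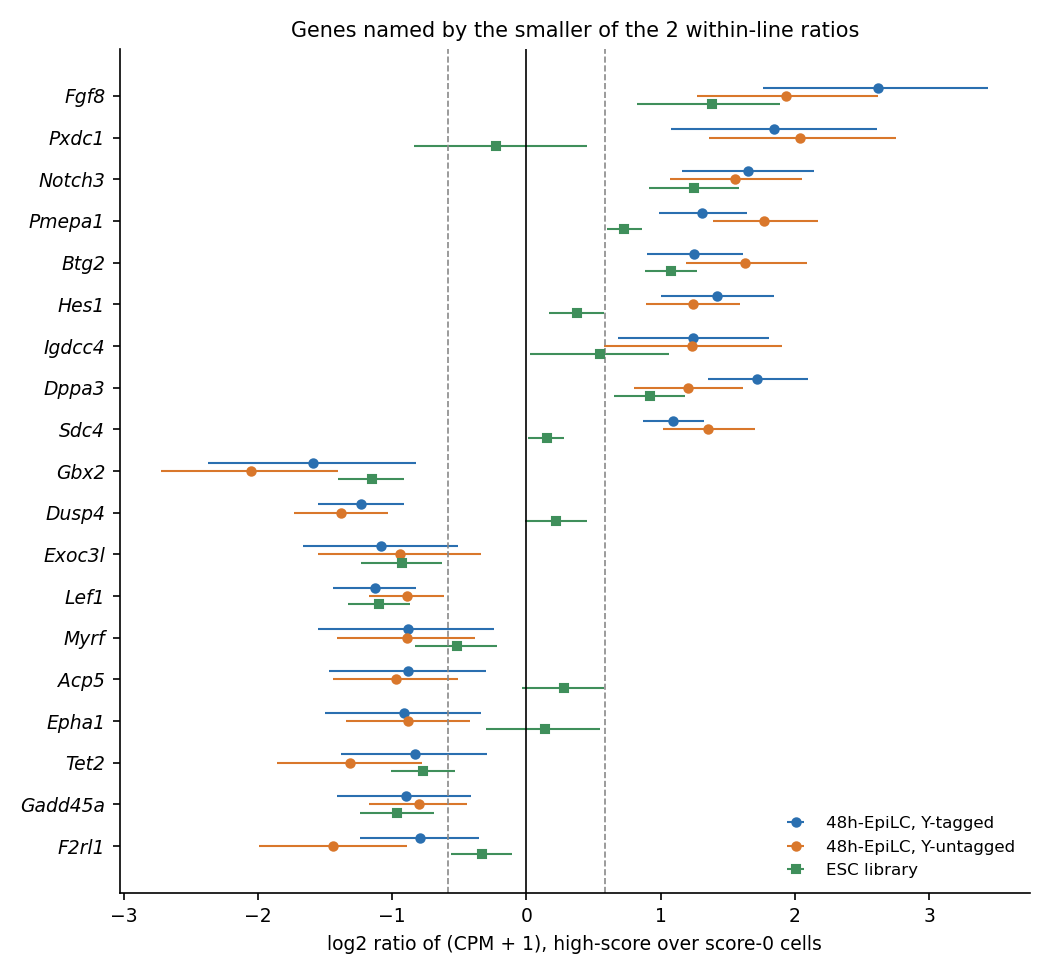
Log2 ratio of CPM + 1 between high-score and score-0 cells for 9 higher and 10 lower named genes, in Y-tagged and Y-untagged 48h-EpiLCs and in the ESC library, with exact 95% intervals for counting error. Dashed lines mark 1.5-fold; the rule that named the 19 genes placed them past it in both 48h-EpiLC classes, while in the ESC library Pxdc1, Sdc4, Dusp4, Acp5 and Epha1 lie near 0 (Pxdc1 -0.23, Acp5 0.28).

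These differences were graded along the score. The 8270 cells between both classes were put in order of score and divided into 4 equal groups. Fgf8 stood at 3.75 CPM at score 0, at 4.81, 6.62, 9.95 and 11.7 in the 4 groups and at 21.9 in members. Pmepa1 went from 30.2 through 31.1, 40.9, 48.5 and 58.3 to 79.5. Of the 9 higher genes described here 7 increased at every step, the exceptions being Hes1 and Sdc4. Sdc4 lay between 49.7 and 57.6 CPM up to the fourth group and stood at 116 in members. Of the 10 lower genes 6 decreased at every step, Gbx2 from 20.7 through 18.5, 14.3, 12.2 and 10.5 to 5.15, and Lef1, Myrf, Acp5 and Epha1 each had 1 step in the other direction. Because these genes were named by their ratio between members and score-0 cells, their direction from end to end was fixed in advance. Only the steps among the 4 groups were free of that choice. The counts of 7 and 6 include the end steps too. Among the 4 groups Hes1 increased at each step and Lef1, Myrf and Epha1 decreased at each. The share of all genes with every step in 1 direction is not given. Line classes were pooled in this ordering. Median depth in the 4 groups was 15456 to 15865 UMIs, so within them the gradient ran at nearly equal depth.

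**Figure D4:**
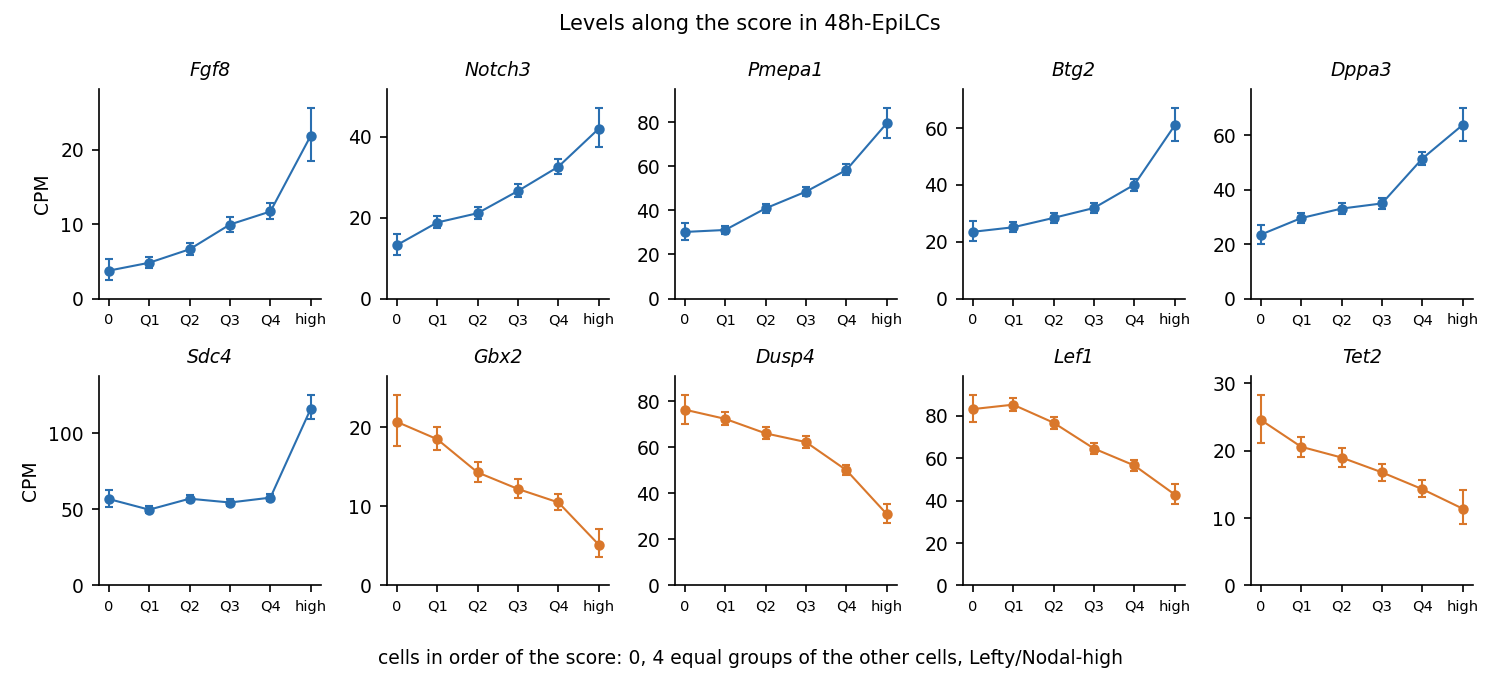
Level (CPM, axes from 0) of 10 named genes in 48h-EpiLCs ordered by score: score 0, 4 equal groups of the cells in between (Q1 to Q4) and the Lefty/Nodal-high cells, with exact Poisson 95% intervals. Most genes move in steps along the whole order (Pmepa1 from 30.2 to 79.5, Gbx2 from 20.7 to 5.15), while Sdc4 is between 49.7 and 57.6 CPM in all groups before the last.

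Most other genes of the pathway, like most measured genes, differed by less than 1.5-fold. Of 37 listed genes beside the 3 of the score, 12 reached 20 CPM. Of these, 2, Pmepa1 included, were 1.5-fold higher and 0 were 1.5-fold lower, against 1.20% and 0.938% of all measured genes. The median log2 ratio of the 12 was 0.03. Among the ligands, Gdf3, a partner of Nodal, stood at 121 and 124 CPM, and Gdf1 had no UMI in either class. Inhba and Inhbb, the activin subunits, stood below 0.3 CPM in both. Of the receptors, the co-receptor Tdgf1 stood at 494 and 529.6 CPM (log2 ratio -0.10) and the type II receptor Acvr2b at 41.6 and 40.4, while the type I receptor Acvr1b was scarce at 4.86 and 4.78. The convertases that cleave the Nodal precursor were scarce too, with Furin at 4.15 and 7.62 CPM and Pcsk6 at 3.72 and 3.62. The transducers Smad2 (30.5 and 32.6 CPM) and Smad4 (50.8 and 51.3) differed as little, Smad3 stood at 5.72 and 4.01 and the Smad partner Foxh1 at 1.57 and 1.94.

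Among the inhibitors the median log2 ratio was 0.32, with 5 of 6 measured genes positive in both line classes. Beside Pmepa1 these were the inhibitory Smad7 (105 against 86.1 CPM, 0.28), the SMAD corepressors Skil (122 against 95.4, 0.35) and Ski (52.2 against 39.7, 0.39), and Drap1 (102 against 101, 0.02). The interval of Drap1 spanned 0 (-0.13 to 0.17). The sixth, the corepressor Tgif1, was at -0.26. Fst, which encodes the activin-binding follistatin, was below the 20 CPM limit and lower in members, at 7.58 CPM (5.68 to 9.91) against 17.2 (14.4 to 20.4). Its log2 ratio was -1.25 (-1.79 to -0.71) in Y-untagged cells. In Y-tagged cells it was -0.57, with an interval that spanned 0 (-1.43 to 0.29). Of the 6 measured inhibitors Pmepa1 alone passed 1.5-fold.

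Mesendoderm genes that high Nodal activity induces in the embryo were near the detection limit in both classes. Of 16 listed genes only Fgf8 reached 20 CPM. Wnt3, a ligand needed for the primitive streak, was higher in members as well, at 10.4 CPM (8.18 to 13.1) against 3.75 (2.51 to 5.38), with log2 ratios of 1.13 and 1.27 in the line classes. The streak factors T (1.86 and 1.94 CPM), Eomes (4.15 and 6.59), Mixl1 (0.572 and 0.905) and Gsc (0.286 and 0.775) were not higher. Eomes differed by line class, with a log2 ratio of -1.53 (-2.47 to -0.55) in Y-tagged cells, from 7 and 30 UMIs. In Y-untagged cells its ratio was 0.11 (-0.77 to 0.98). Cer1, another secreted Nodal antagonist, had 0 UMIs in members, which at a floor of 3 UMIs over the class total allows up to 0.429 CPM. The other targets Lhx1 and Foxa2 stood below 0.5 CPM.

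Pluripotency genes did not move as a block. Of 6 measured naive genes, Dppa3 and Nanog were 1.5-fold higher in members, Nanog at 34.3 CPM (30.1 to 38.9) against 16.8 (14.0 to 19.9), while Klf5 (24.2 against 45.1) and Zfp42 (51.6 against 85.5), also called Rex1, were 1.5-fold lower, Zfp42 not within Y-untagged cells (-0.42). Over all measured genes 1.20% were 1.5-fold higher and 0.938% lower. Klf4, Esrrb, Tfcp2l1, Tbx3 and Prdm14 were under 10 CPM in both classes. All 6 formative genes had negative ratios over both line classes together, with a median of -0.41, and 5 were negative in each class. Lef1 (-0.94) and Otx2, a transcription factor that drives the naive to formative step (32.9 against 55.2 CPM, -0.73), were past 1.5-fold. The DNA methyltransferases Dnmt3a (-0.50) and Dnmt3b (-0.32), Pou3f1 (-0.23) and Fgf5 (-0.19) were not. Within the line classes Dnmt3a was at -0.17 in Y-tagged and -0.90 in Y-untagged cells, and Fgf5 at -0.49 and 0.03. The 6 core genes had a median of -0.22, Pou5f1 standing at 89.1 and 99.4 CPM.

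Of 14 measured genes of FGF and ERK signalling, 6 were 1.5-fold lower and 2, Fgf8 and Fos, 1.5-fold higher, with a median of -0.45. In both line classes 4 were 1.5-fold lower (Dusp4, Spred1, Spry4 and Ier3) and 1, Fgf8, 1.5-fold higher. Over all measured genes 0.938% were 1.5-fold lower and 1.20% higher, and in both line classes 0.521% and 0.781%. The lower genes were the feedback inhibitors Dusp4 (-1.27), Spred1 (-0.62), Spry2 (-0.63) and Spry4 (-0.59), the ETS factor Etv4 (-0.64) and Ier3 (-0.93). Fos (37.2 against 20.5 CPM, 0.82) and Egr1 (0.29) are immediate early genes. Fgf4, the main FGF ligand of ESCs, had a ratio of -0.38.

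Of 9 measured targets of p53, 4 were 1.5-fold higher, in both line classes as well, and 0 lower. Over all measured genes 1.20% were 1.5-fold higher, 0.781% in both line classes. The median of the p53 targets was 0.49, and 8 were positive in both line classes. Cdkn1a, the cell cycle inhibitor p21, stood at 160.1 CPM (151 to 169.8) against 76.0 (70.0 to 82.4), Mdm2, the ubiquitin ligase that degrades p53, at 210.3 against 126, Phlda3 at 169 against 100.3 and Trp53inp1 at 82.8 against 48.1. Ccng1 had a ratio of 0.49, whereas the apoptosis gene Bax (0.10) and the nuclease gene Aen (0.02) were close to 0. Btg2 (1.34) and Gadd45a (-0.77), both named above, are known p53 targets outside this list and went in opposite directions. Cell cycle genes differed little, with medians of -0.14 over 14 S phase genes and 0.02 over 14 G2/M genes, none of them past 1.5-fold.

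**Figure D5:**
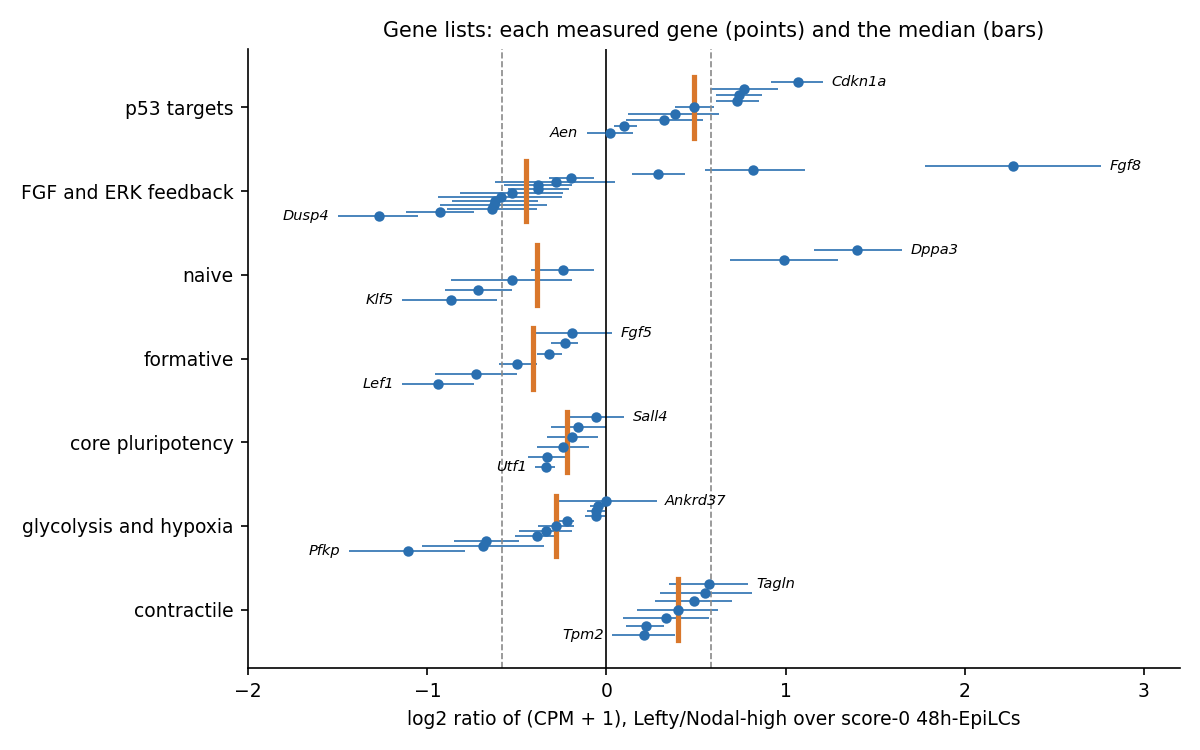
Log2 ratio of CPM + 1 between Lefty/Nodal-high and score-0 48h-EpiLCs for each measured gene of 7 lists (points, exact 95% intervals for counting error) and the list median (bars). The medians were 0.49 for p53 targets, -0.45 for FGF and ERK feedback, -0.39 for naive, -0.41 for formative, -0.22 for core pluripotency, -0.28 for glycolysis and hypoxia and 0.40 for contractile genes; dashed lines mark 1.5-fold, and the lowest and the highest gene of each list are named.

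In smaller steps, 10 of 11 measured glycolysis and hypoxia genes were negative in both line classes (median -0.28, 3 of them 1.5-fold lower, Pfkp, Adm and Pdk1, of which Pfkp alone in both classes), and 7 of 7 contractile and YAP-responsive genes were positive in both (median 0.40, 0 past 1.5-fold, Tagln 54.9 against 36.6 CPM, Ccn1 56.2 against 39.8). Over all measured genes 0.938% were 1.5-fold lower, 0.521% in both line classes. The share of all genes with 1 sign in both classes is not given, so counts of positive or negative genes describe the lists alone. Id2 (-0.76), 1 of 3 measured genes of the BMP list, was also 1.5-fold lower (-0.80 and -0.51 in the line classes). The lists of amino-acid stress (5 measured genes, median -0.08) and epithelial adhesion (8 genes, median -0.00) held none past 1.5-fold over both line classes together. Within Y-tagged cells the adhesion-list genes Krt8 (-1.39), Krt18 (-0.83) and Vim (-0.72) were 1.5-fold lower. In Y-untagged cells they stood at 0.19, -0.10 and 0.13. The median of the adhesion list was 0.04 in Y-tagged and 0.03 in Y-untagged cells. In the Wnt list Lef1 alone passed 1.5-fold, Axin2 and Sp5 being below 20 CPM.

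Among the measured genes within 500 kb of Nodal, the nearest, Eif4ebp2 at 3.15 kb, had a log2 ratio of -0.08. H2afy2 at 313 kb, singled out after its values were seen, was the one past 1.5-fold, with 34.7 against 21.8 CPM and a ratio of 0.65 (0.54 in Y-tagged, 0.85 in Y-untagged cells, 0.16 in the ESC library).

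The members were epiblast-like by the 5 markers Pou5f1, Sox2, Fgf5, Otx2 and Dnmt3b, all of which were above 30 CPM in them. Against score-0 cells all 5 nevertheless had negative log2 ratios (median -0.24), 4 of them in both line classes. Otx2 alone was past 1.5-fold (-0.73). Markers of other cells were near 0. The 7 fibroblast markers of feeder cells summed to 10.6 CPM in members and 11.5 in score-0 cells, with Postn and Lum at 0 UMIs in both. The 6 primitive endoderm markers summed to 5.15 and 3.62 CPM (Pdgfra at 0 in members) and the 4 trophoblast markers to 9.58 and 12.1 (Elf5 at 0 in both). The 5 markers of 2-cell-like cells summed to 2.29 CPM in members and 12.5 in score-0 cells, Zscan4d at 1.29 against 6.07, a difference present in Y-tagged cells (log2 ratio -1.86) but not in Y-untagged ones (-0.08). Its part in the other comparisons was not tested.

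The same rule was applied to the ESC library, which had no part in choosing the members. Here 366 cells with at least 2 UMIs of the fibroblast markers were left out first. Lefty1 was lower in these ESCs than in the 48h-EpiLCs (74.3 against 430.4 CPM), Lefty2 stood at 44.7 and 64.5 and Nodal was higher (72.5 against 56.9). Thinned to 5000 UMIs, 17.6% of ESCs and 62.4% of 48h-EpiLCs had a Lefty1 UMI, 16.4% and 24.5% a Lefty2 UMI, and 28.9% and 23.8% a Nodal UMI. Feeder-like cells of the ESC library (117 cells with at least 10 fibroblast UMIs, median 15806 UMIs), which should lack these genes, had a Lefty1 UMI in 14.5% of cells, Lefty2 in 12.0% and Nodal in 22.2% without thinning, against 29.2%, 30.1% and 52.2% of the ESCs used here (median 11844 UMIs). Stage and library cannot be told apart.

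The highest 5% of ESCs were 534 cells, with scores from 6.81 to 52.2, and 3104 ESCs (29.0%, against 7.02% of 48h-EpiLCs) scored 0. Only 59 of 10688 ESCs (0.552%, interval 0.420 to 0.711) reached the lowest score of the 48h-EpiLC members. The high-score ESCs were richer in Y-linked UMIs than score-0 ESCs, 51.5% (47.2 to 55.8) against 32.0% (30.4 to 33.7), at like median depths of 11020 and 10642 UMIs. Lefty2 was the gene of the score that differed most by tag in ESCs, at 57.3 CPM in Y-tagged and 27.3 in Y-untagged cells. With 1 gene left out, the log2 ratios were 3.27 for Lefty1, 2.48 for Lefty2 and 0.68 for Nodal.

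Of 5887 genes measured in ESCs, 115 were 1.5-fold higher (1.95%) and 88 were 1.5-fold lower (1.49%) in high-score cells, and the median log2 ratio was 0.04. Of the 45 genes higher in both classes of 48h-EpiLCs, 26 were measured in ESCs. There 15 of them were 1.5-fold higher, 0 were 1.5-fold lower, and 25 had a positive ratio, with a median of 0.66. Of the 30 lower genes 27 were measured, of which 10 were 1.5-fold lower, 0 were 1.5-fold higher and 25 had a negative ratio, with a median of -0.39. Since the tags of high-score and score-0 ESCs differed, the count was repeated inside both ESC line classes: 10 of the 26 were 1.5-fold higher in both (0.730% of all measured genes were) and 7 of the 27 were 1.5-fold lower in both (0.578%). With the fibroblast-marker cells kept, 10 of 28 and 11 of 27 were past 1.5-fold in the same direction, and 1 of the 28 in the opposite one.

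Among the named genes Btg2 (1.08), Dppa3 (0.92) and Pmepa1 (0.73) were 1.5-fold higher in high-score ESCs over both line classes together, and Gbx2 (-1.15), Lef1 (-1.10), Gadd45a (-0.96), Exoc3l (-0.93) and Tet2 (-0.77) were 1.5-fold lower. Within Y-tagged ESCs Dppa3 (0.29, interval -0.12 to 0.70) and Gadd45a (-0.42, -0.87 to 0.01) did not pass 1.5-fold, and the other 6 passed in both classes. Notch3, at 15.3 against 5.87 CPM, and Fgf8, at 3.71 against 0.812, were below 20 CPM in ESCs. Of the gene lists, the p53 targets kept a positive median (0.37), with 3 of 9 genes 1.5-fold higher. FGF and ERK genes kept a negative one (-0.36), with 1 of 12 genes 1.5-fold lower. Over all genes measured in ESCs 1.95% were 1.5-fold higher and 1.49% lower. Within Y-tagged and Y-untagged ESCs the p53 medians were 0.55 and 0.29, and the FGF and ERK medians -0.22 and -0.22. The median of the contractile genes was -0.30 in ESCs together but -0.12 and 0.21 within the line classes. Dusp4 had a ratio of 0.22 in ESCs (-0.01 to 0.45), and Nanog, higher in 48h-EpiLC members, one of -0.51.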

How the data were processed

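The authors deposited filtered gene-by-cell matrices of UMI counts, made from 10x Chromium 3′ v2 libraries with Cell Ranger 3.0.2 against mm10 to which the tdTomato coding sequence had been added; the submitters' notes also list Seurat 4. Counts were used as deposited. The EpiLC48h library held 12427 barcodes and 163771168 UMIs and the ESC library 13184 barcodes and 144584246 UMIs; 26 kept barcodes (0.277% of the kept 48h-EpiLCs) occurred in both. UMIs were summed per class and given as CPM with exact Poisson intervals, shares with exact Clopper-Pearson intervals, and ratios as log2 of CPM + 1 with the exact binomial split of the UMIs (Python 3, numpy, scipy). With 1 library per stage no p-value was computed. Genes needed 20 CPM in the higher class. Named genes were the whole Nodal list, the 10 highest and 10 lowest by the smaller of both within-line ratios with 1 sign (score genes, Y-linked genes, Xist, Tsix and tdTomato aside), and up to 4 of each other list by ratio. Doublet scores followed the Scrublet method and TMM factors came from edgeR. Members and lists were chosen with earlier results of these data known. The arithmetic of the class comparison was tested on class sums simulated from the score-0 profile with known fold changes. That simulation held no variation between cells and no choice of cells by score. Gene positions are GENCODE vM21. The values of 3 genes, 1 of them among the 10 highest, are not reported here.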

Additional observations from a re-analysis of the deposited data

Results flagged for a closer look

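Nanog, a core factor of naive pluripotency, went in opposite directions with the score in the 2 libraries. Its log2 ratio was 0.99 in 48h-EpiLCs (0.89 in Y-tagged and 1.01 in Y-untagged cells), with 34.3 CPM in Lefty/Nodal-high and 16.8 in score-0 cells. In the ESC library it was -0.51 (-0.61 and -0.30), with 55.1 CPM in high-score and 78.6 in score-0 cells. All 4 within-line intervals lay on 1 side of 0. The difference between the libraries was not tested, since each stage has 1 library, and its cause was not tested.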

How the results depend on the processing

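The 20 named genes were chosen by their ratios within Y-tagged and Y-untagged cells, so those settings could not move them, and all alternatives draw on the same cells. The limit of 5 CPM left their ratios unchanged, and TMM scaling changed every ratio by 1 very small constant, so these settings could not move them either. Under the others of the 15 alternatives no sign changed and 16 to 20 genes stayed past 1.5-fold, the 16 within the 19 members and 31 score-0 cells of the tdTomato-tagged class, an alternative added after seeing the data like the fibroblast-marker choice in ESCs. The counts of 69 higher and 54 lower genes were less firm: 113 and 114 with the highest 2%, 127 and 115 within Y-tagged, 114 and 116 within Y-untagged and 810 and 1048 within tdTomato-tagged cells, where fewer UMIs widen the spread, and 288 and 185 at a limit of 5 CPM. Against all other kept cells 35 were higher and 12 lower, with the highest 10% 38 were higher, and after thinning before scoring 34 were lower. Of score-0 cells, 44.4% had a Y-linked UMI at 10000 or more UMIs and 47.8% when cells were thinned before scoring. The log2 ratio of the left-out Lefty1 was 1.84 with the highest 2%, 1.51 with the highest 10%, 1.67 without high doublet scores and 1.04 thinned, and that of Lefty2 was 1.43 thinned. With the UMIs divided, the levels were 2171 CPM for Lefty1, 137 for Lefty2 and 75.9 for Nodal. Over all alternatives the list median of p53 targets ran from 0.34 to 1.28 that of FGF and ERK genes from -0.59 to -0.35, naive genes from -1.07 to -0.07, formative from -0.63 to -0.24, core from -0.28 to -0.13, glycolysis and hypoxia from -0.31 to -0.11 and contractile genes from 0.26 to 0.66. No paired analysis was possible because each group is 1 library. Depth limits genes under about 20 CPM, and no interval covers differences between cultures.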
